A study of Homo sapiens with 6 samples.

Results

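A set of 10 genes that mark or drive the epithelial-mesenchymal transition (EMT) was followed in PC3 cells given the peptide RSM3. The genes were taken from the deposited count table by gene name: ZEB1, ZEB2, SNAI1, SNAI2, TWIST1, VIM, FN1, EPCAM, ESRP1 and ESRP2, 10 of 60545 genes in the table. Each name matched 1 row, and all 10 passed the expression filter that left 15773 genes for testing. PC3 is an established human cell line grown from prostate cancer that had spread to bone. The 6 libraries of poly(A) RNA form 2 groups of 3, RSM3 and Control, all from PC3 cells in RPMI-1640 with fetal bovine serum. The labels give no dose, no duration and no statement of what Control cells received, and they do not say whether replicates were separate cultures, so p-values measure the spread among these 6 samples alone, and that spread may be technical.

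EMT is the process in which epithelial cells lose their junctions and polarity and take on a motile, mesenchymal form. It is driven by zinc finger repressors (ZEB1, ZEB2, SNAI1, SNAI2) and the basic helix-loop-helix factor TWIST1, several of which bind E-box sequences in the promoters of epithelial genes such as the E-cadherin gene CDH1. Vimentin (VIM) and fibronectin (FN1) are classical products of the mesenchymal state, EPCAM is a surface adhesion molecule of epithelia, and ESRP1 and ESRP2 are RNA-binding proteins that impose epithelial splicing on transcripts such as those of FGFR2, CD44 and ENAH. The values are counts per gene, so they carry no information on which splice forms were made, on protein, or on how many cells expressed a gene. In bulk RNA, fewer cells expressing a gene and less RNA per cell cannot be told apart.

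The libraries held 14091359 to 18594251 counts on genes. RSM3 replicate 1 stood apart: the Spearman correlation across genes between its log2 deviation from the mean of all libraries and transcript GC content was 0.418, against -0.321 and -0.289 in the other RSM3 libraries and -0.205 to 0.158 in Control (genes are not independent replicates). This library held the highest or the lowest value for 5 and 2 of the 10 genes, and for 25.8% and 26.4% of all tested genes. Control replicates 1 and 2 also differed from the rest in TPM1, a tropomyosin gene, at 102 and 109 CPM (counts per 1000000, normalised by TMM factors) against 29.4 to 31.5 CPM in the other 4 libraries. Results that rest on these libraries are given without them for some genes only, and their part in the results was not tested otherwise. A further fit held a term for Control replicates 1 and 2, which leaves Control replicate 3 as the sole reference. Calls given below for FOXA1, PKP2, TRA2B, FHL2, KDR, TMPRSS2 and HOXB13, among others, ended in that fit. Those of CCN2, LIF, SMAD3, PDGFB, QKI and UAP1 held. Among markers of the labelled cell type, the luminal keratin genes KRT8 and KRT18 were present at 271 to 418 and 169 to 212 CPM, whereas the prostate kallikrein genes KLK3 and KLK2 had 1 and 0 counts in all libraries together.

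The mesenchymal products stood far above the epithelial genes in both groups. Per kilobase of the longest annotated coding transcript, VIM stood highest in Control at 434 ± 29.4 CPM per kb (mean ± SD, n = 3) and FN1 next at 326 ± 11.7 CPM per kb, both above the 99th percentile of tested genes (percentiles 99.6 and 99.3). ZEB1 followed at 10.8 ± 0.258, SNAI2 at 8.42 ± 0.898, ESRP2 at 6.94 ± 0.406, EPCAM at 5.20 ± 0.218 and TWIST1 at 5.18 ± 0.869 CPM per kb, between percentiles 45.3 and 62.6. SNAI1 at 0.940 ± 0.265, ESRP1 at 0.810 ± 0.152 and ZEB2 at 0.273 ± 0.10 CPM per kb formed the low end. In Control the neighbours EPCAM and TWIST1 overlapped between libraries, as did SNAI1 and ESRP1, while every other pair of neighbours was separated. The order of the means was the same in RSM3, where ZEB1 and SNAI2 overlapped as well. With the length of all annotated exons in place of the longest transcript, EPCAM (3.56 CPM per kb in Control) and TWIST1 (4.24) changed places. Within each pair of related genes 1 member dominated: the mean level per kb of ZEB1 was 39.5 times that of ZEB2 in Control, that of SNAI2 8.96 times that of SNAI1, and that of ESRP2 8.56 times that of ESRP1.

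**Figure D1:**
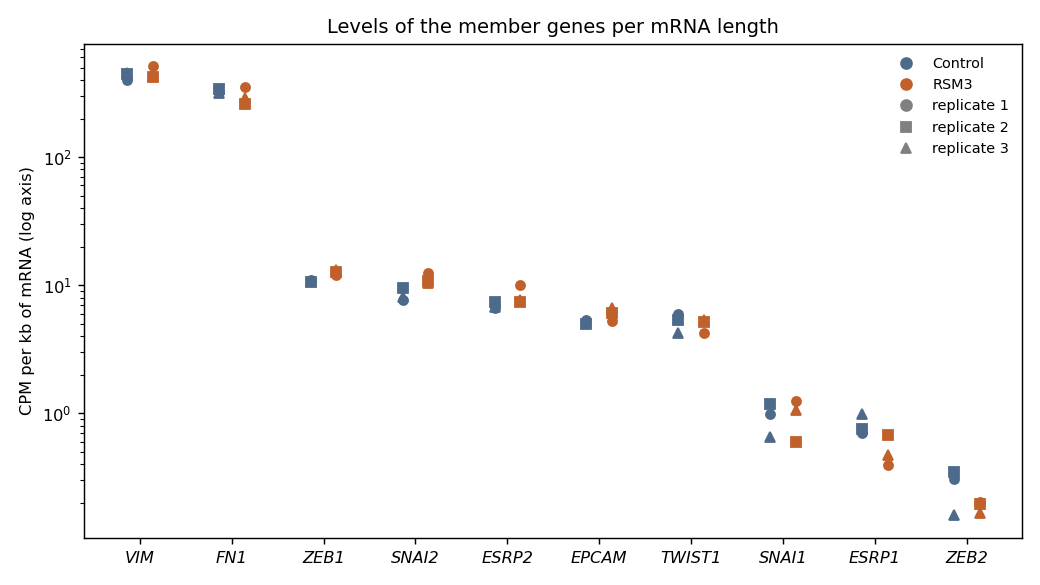
Level of each gene in each library, in CPM per kilobase of mRNA on a log axis, with Control in blue and RSM3 in orange and the marker shape giving the replicate. VIM and FN1 lie above 250 CPM per kb in every library, the middle 5 genes lie between 4 and 14, and SNAI1, ESRP1 and ZEB2 lie at or below 1.25.

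The RSM3 libraries differed from Control by amounts that did not pass the test for any of the 10 genes. At an adjusted p under 0.05, 0 of the 10 genes were called (edgeR quasi-likelihood test, Benjamini-Hochberg over all tested genes), where 4.20% of all tested genes were called (3.09% higher and 1.10% lower; with library size alone, the calls split into 308 higher and 254 lower, against 488 and 174). An unadjusted p under 0.05 was reached by 4, with SNAI2, ZEB1 and ESRP2 higher and ESRP1 lower, against 17.8% of tested genes. The same 4 genes were those whose groups did not overlap, 3 higher and 1 lower; 23.9% of tested genes had such groups (12.8% higher, 11.1% lower), and 28.9% once the trend of each library with transcript GC content and length had been removed (the GC and length correction), where these 4 stayed apart. DESeq2 called 1 of the 10, SNAI2, where it called 5.68% of genes, and limma voom called 0 (4.16%). Fits with no expression filter called SNAI2 too (3.36% of genes). With the GC and length correction SNAI2, ZEB1 and ESRP2 were called (10.3%), and SNAI2 and ZEB1 with a replicate block added (9.22%). Without RSM3 replicate 1, 3 of the 10 were called (ZEB1 and SNAI2 higher, FN1 lower), as were 14.6% of tested genes. The count was 0 without Control replicate 1, 2 or 3 (1.38%, 1.33% and 2.49% of genes) and without RSM3 replicate 2 or 3 (2.09% and 1.78%). It was also 0 with DESeq2 size factors (4.14%), library size alone (3.56%), a filter of 1 CPM in 3 libraries (4.58%), the replicate block (4.14%), and a term for Control replicates 1 and 2 without and with the GC and length correction (0.748% and 3.68%).

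**Figure D2:**
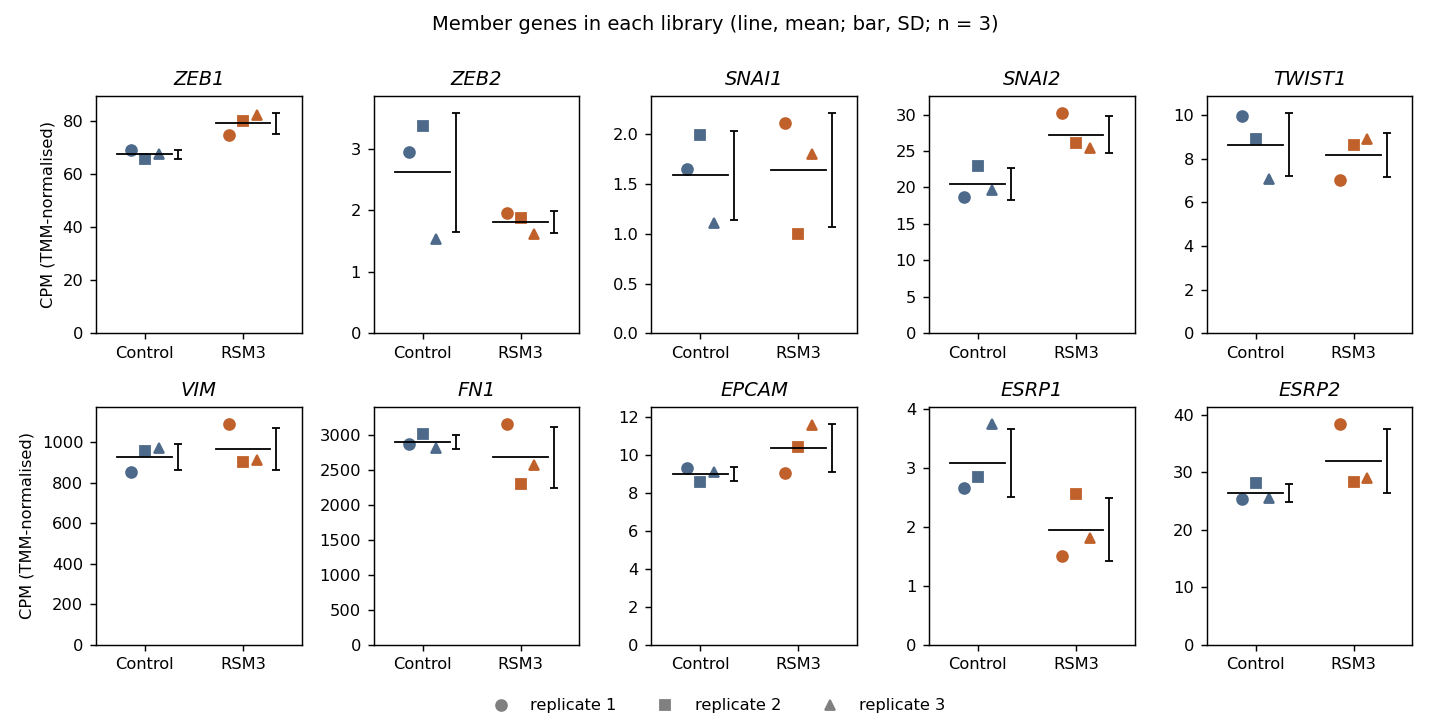
TMM-normalised CPM of the 10 genes in each library, with 1 panel per gene, axes from 0, the group mean as a line and the SD as a bar (n = 3 per group). The RSM3 points lie above all Control points for ZEB1, SNAI2 and ESRP2 and below them for ESRP1, and the groups overlap for the other 6 genes.

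ZEB1, the zinc finger repressor of CDH1 and of the miR-200 family, lies on chromosome 10 (31318495 to 31529814, plus strand, GRCh38). Control replicates 1, 2 and 3 held 69.1, 65.9 and 67.9 CPM, and the RSM3 replicates 75.0, 80.1 and 82.6 CPM. The 3 RSM3 libraries were all above the 3 Control libraries, and the 2 groups were tight, at 67.6 ± 1.62 and 79.3 ± 3.86 CPM. The log2 fold change was 0.23 ± 0.08 (SE), with a 95% interval of 0.05 to 0.41 and an edgeR adjusted p = 0.149. With the GC and length correction the adjusted p was 0.0225 (log2 fold change 0.25), and without RSM3 replicate 1 it was 0.00710 (0.27). Without any one of the other libraries it ran from 0.283 to 0.415. The antisense gene ZEB1-AS1, which neighbours ZEB1, averaged 3.47 ± 0.575 and 4.69 ± 0.537 CPM in Control and RSM3 libraries (edgeR adjusted p = 0.317). No source used here states the strand setting of the counting, so reads of the pair may be mixed.

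The RefSeq promoters of ZEB1 and FN1 (GRCh38.p14, 250 bases before to 50 after the start of the transcript) are shown because these 2 genes were among those called without RSM3 replicate 1 and differ in direction there. Promoters of 4 of the 10 genes were found in the table (ZEB1, ZEB2, VIM and FN1). Capitals in the ZEB1 sequence mark the E-box CAGGTG, which ZEB and SNAIL proteins bind, 57 bases before the start; capitals in the FN1 sequence mark a cyclic AMP response element, TGACGTCA, and a CCAAT box, 183 and 162 bases before it.
ZEB1 promoter, chr10:31318167-31318466, plus strand: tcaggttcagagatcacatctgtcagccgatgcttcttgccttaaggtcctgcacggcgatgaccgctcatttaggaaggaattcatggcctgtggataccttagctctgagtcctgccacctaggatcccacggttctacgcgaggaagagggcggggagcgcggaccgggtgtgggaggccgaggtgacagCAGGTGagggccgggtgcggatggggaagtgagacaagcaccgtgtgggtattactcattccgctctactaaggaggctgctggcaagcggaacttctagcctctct
FN1 promoter, chr2:215436019-215436318, minus strand: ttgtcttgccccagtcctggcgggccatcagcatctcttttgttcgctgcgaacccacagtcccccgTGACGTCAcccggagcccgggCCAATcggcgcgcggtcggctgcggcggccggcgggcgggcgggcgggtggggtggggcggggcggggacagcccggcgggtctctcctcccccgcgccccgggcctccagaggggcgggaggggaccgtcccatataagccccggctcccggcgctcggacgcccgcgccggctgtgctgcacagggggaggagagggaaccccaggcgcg
Both strands were searched, with CAGGTG or CACCTG for the E-box and CCAAT or ATTGG for the CCAAT box, and the response element reads the same on both. The E-box was found in 20.6% of 35116 promoters of this length, the cyclic AMP response element in 1.85% and the CCAAT box in 34.6%. Of the 4 promoters, ZEB1 alone held the E-box and FN1 alone the other 2 motifs. A match describes the letters and not binding.

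ZEB2, the paralogue of ZEB1, lies on chromosome 2 (144364364 to 144524583, minus strand). It was counted at 50, 59 and 29 reads in Control and 26, 30 and 25 reads in RSM3, which is 2.95, 3.36 and 1.53 CPM against 1.96, 1.87 and 1.61 CPM. Control replicates 1 and 2 were high, while Control replicate 3 lay below all 3 RSM3 libraries, so the groups overlapped. The log2 fold change was -0.52 ± 0.33 (95% interval -1.23 to 0.18, edgeR adjusted p = 0.450). It was -0.30 without Control replicate 2 and -0.80 without Control replicate 3 (adjusted p = 0.823 and 0.208). With a term for Control replicates 1 and 2, which leaves Control replicate 3 as the sole reference and assumes that it varies like the other libraries, the value turned to 0.24 (adjusted p = 0.879). The 2 libraries high in ZEB2 were the same 2 that were high in TPM1.

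SNAI2, also called Slug, a zinc finger repressor of the SNAIL family, gave the smallest p of the 10 genes. It lies on chromosome 8 (48917604 to 48921740, minus strand). The Control libraries held 18.7, 22.9 and 19.7 CPM of it and the RSM3 libraries 30.2, 26.1 and 25.5 CPM. Each RSM3 library exceeded each Control library, with means of 20.4 ± 2.18 and 27.3 ± 2.55 CPM. This is a log2 fold change of 0.41 ± 0.12, with a 95% interval of 0.16 to 0.67 (edgeR adjusted p = 0.0736). The value stayed above 0 in every alternative, from 0.34 to 0.51. The call did depend on the fit: the adjusted p was 0.0437 with DESeq2, 0.0325 with no expression filter, 0.0358 with the GC and length correction and 0.0399 without RSM3 replicate 1, against 0.114 to 0.297 without any one of the other libraries and 0.121 with library size alone.

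SNAI1, the founding SNAIL gene, lies on chromosome 20 (49982999 to 49988886, plus strand). It was counted at 28, 35 and 21 reads in Control and 28, 16 and 28 reads in RSM3. The groups covered the same range, 1.11 to 1.99 and 0.998 to 2.11 CPM. At this depth the 95% interval of the log2 fold change was wide, -0.77 to 0.84 (fold 0.588 to 1.79, edgeR adjusted p = 0.973). Neither a fall nor a rise within that range is excluded. TWIST1, on chromosome 7 (19020991 to 19117672, minus strand), encodes a basic helix-loop-helix factor active in the cranial mesenchyme and in metastasis models. Its levels overlapped between groups, at 9.93, 8.89 and 7.07 CPM in the Control libraries against 7.00, 8.61 and 8.89 CPM under RSM3. Its log2 fold change was -0.07 ± 0.17 (95% interval -0.44 to 0.30, edgeR adjusted p = 0.881).

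VIM, which encodes the intermediate filament of mesenchymal cells, lies on chromosome 10 (17228259 to 17237593, plus strand). Control replicates 1 to 3 held 856, 958 and 969 CPM against 1088, 902 and 911 CPM for RSM3. RSM3 replicate 1 was the highest of the 6, and the other RSM3 libraries lay within the Control range. Its log2 fold change was 0.06 ± 0.09, and the 95% interval of the fold ran from 0.910 to 1.19 (edgeR adjusted p = 0.799). The antisense gene VIM-AS1 was counted at 7 to 21 reads per library (edgeR adjusted p = 0.984).

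FN1, the gene of the matrix glycoprotein fibronectin, lies on chromosome 2 (215360440 to 215436172, minus strand) and was the most heavily counted of the 10, with 37003 to 53438 reads per library. Its levels were 2877, 3020 and 2817 CPM among the Control libraries, and 3156, 2309 and 2581 CPM among those of RSM3. RSM3 replicate 1 was above every Control library and RSM3 replicates 2 and 3 were below every one, so the RSM3 libraries split around Control. With all 6 libraries the log2 fold change was -0.12 ± 0.10 (95% interval -0.34 to 0.11, edgeR adjusted p = 0.631). Without RSM3 replicate 1 it was -0.25, with an adjusted p = 0.00149; without any one of the other libraries the value lay between -0.14 and -0.02, with an adjusted p of 0.695 to 0.962. After the GC and length correction RSM3 replicate 1 stood at 3333 CPM, still above the 2301 and 2528 CPM of the other RSM3 libraries.

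EPCAM, which encodes an epithelial adhesion molecule whose cytoplasmic tail can act in the nucleus, lies on chromosome 2 (47345158 to 47387601, plus strand). The Control libraries held 9.28, 8.55 and 9.07 CPM, the RSM3 libraries 9.03, 10.4 and 11.5 CPM. RSM3 replicates 2 and 3 were above all Control libraries, and RSM3 replicate 1 was within their range. EPCAM had a log2 fold change of 0.21 ± 0.15 (95% interval -0.11 to 0.52, edgeR adjusted p = 0.513). CDH1, the E-cadherin gene and the best-known target of the ZEB and SNAIL repressors, averaged 5.90 ± 0.920 and 5.23 ± 0.554 CPM in the 2 groups (edgeR adjusted p = 0.690). CDH2, which encodes the N-cadherin of mesenchymal cells, stood at 91.7 ± 7.91 and 108 ± 3.04 CPM (adjusted p = 0.154, and 0.0163 without RSM3 replicate 1).

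The 2 epithelial splicing genes lay on opposite sides of their Control levels, neither past the threshold. ESRP1, on chromosome 8 (94641074 to 94707466, plus strand), was counted at 45, 50 and 71 reads in Control and 20, 41 and 28 reads in RSM3. That is 2.66, 2.85 and 3.74 CPM against 1.51, 2.56 and 1.80 CPM. All RSM3 libraries were below all Control libraries, with a narrow gap between RSM3 replicate 2 and Control replicate 1. ESRP1 had a log2 fold change of -0.65 ± 0.28, with a 95% interval from -1.26 to -0.04 (edgeR adjusted p = 0.248), and it remained negative in every alternative, from -0.92 to -0.48.

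ESRP2, the paralogue that carries most of the ESRP transcripts in these cells, lies on chromosome 16 (68229111 to 68238102, minus strand). Control replicates 1 to 3 stood at 25.3, 28.1 and 25.6 CPM, and RSM3 replicates 1 to 3 at 38.3, 28.3 and 29.1 CPM. The groups did not overlap, but RSM3 replicate 2 exceeded Control replicate 2 by less than the spread within either group, and RSM3 replicate 1 stood alone at the top. The log2 fold change was 0.27 ± 0.13 (95% interval 0.0026 to 0.54, edgeR adjusted p = 0.275). It was 0.12 without RSM3 replicate 1 (adjusted p = 0.477). At 59.6% GC the longest ESRP2 transcript was the most GC-rich of the 10 genes; after the GC and length correction RSM3 replicate 1 stood at 34.8 CPM and the other RSM3 libraries at 30.5 and 30.8 CPM, against 24.5 to 27.2 CPM in Control, with an adjusted p of 0.0456.

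**Figure D3:**
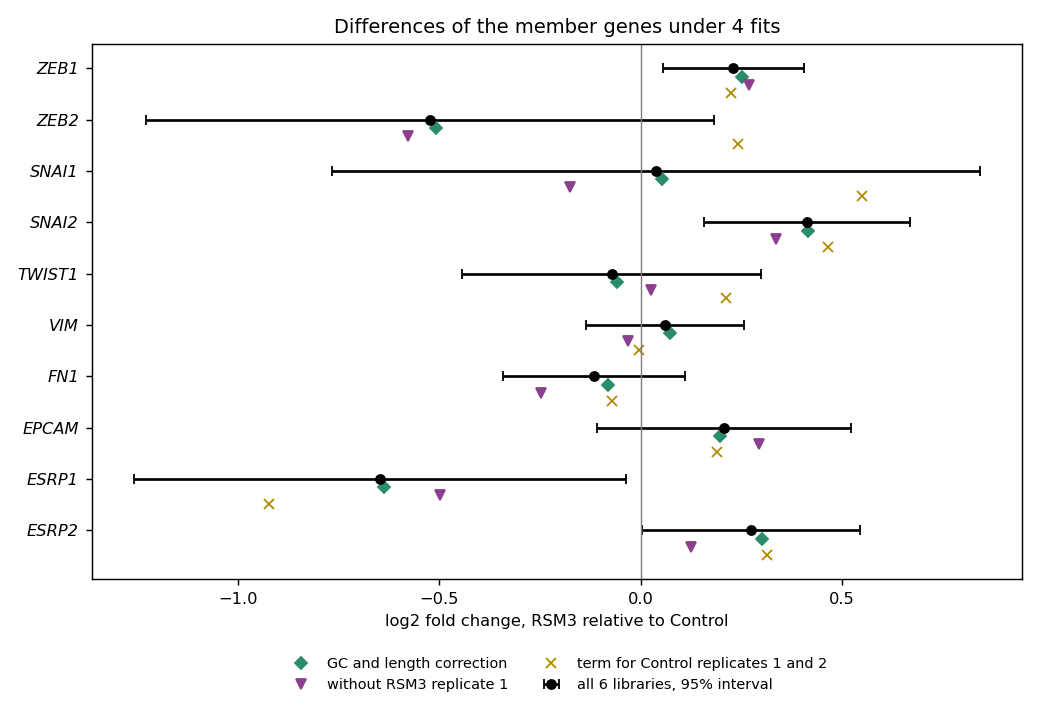
Log2 fold change of each gene in RSM3 relative to Control, with the 95% interval of the fit to all 6 libraries in black and the value under 3 other fits as coloured symbols. The intervals of ZEB1, SNAI2, ESRP1 and ESRP2 exclude 0, those of SNAI1, ZEB2 and ESRP1 are the widest, and the fit with a term for Control replicates 1 and 2 moves ZEB2 from -0.52 to 0.24.

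Whether paralogues differed by unequal amounts was tested on the log2 ratio of their counts (1 count added to each) within each library, for 3 ratios, by a two-sided exact permutation test whose smallest possible p in this design is 0.1. The ESRP1 to ESRP2 ratio was -3.08 ± 0.29 in Control and -4.00 ± 0.58 in RSM3 (SD, n = 3), a difference of -0.92, and it was lower in every RSM3 library than in every Control library (exact p = 0.1, adjusted p = 0.3). Leaving out RSM3 replicate 1 made the difference -0.61, and leaving out RSM3 replicate 2 made it -1.20. The ZEB1 to ZEB2 ratio was 4.74 ± 0.61 and 5.40 ± 0.21 (exact p = 0.3, adjusted p = 0.4), a difference of 0.66 that was 1.01 without Control replicate 3 (exact p = 0.1) and 0.43 without Control replicate 2. The SNAI1 to SNAI2 ratio was -3.68 ± 0.36 and -4.06 ± 0.49 (exact p = 0.4, adjusted p = 0.4), a difference of -0.39 that became -0.59 when Control replicate 3 was dropped and -0.11 when RSM3 replicate 2 was.

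The protein-coding genes whose profile over the 6 libraries was nearest to that of a given gene were found by Euclidean distance of centred log2 CPM, for the 3 genes with the smallest p. Nearest to SNAI2 were UPP1, a uridine phosphorylase gene (distance 0.11), CTSO, a cathepsin gene (0.12), and SAT1, which acetylates polyamines (0.13). Of these, UPP1 and SAT1 were called higher (log2 fold changes 0.36 and 0.45, edgeR adjusted p = 0.0442 and 0.0157) and CTSO was not (adjusted p = 0.101). Nearest to ZEB1 were NIPA1, a magnesium transporter gene, NUP50, a nuclear pore gene, and PROS1, which encodes the anticoagulant protein S (distances 0.04, 0.05 and 0.06). Nearest to ESRP1 were SKIDA1, CXADR, the coxsackievirus and adenovirus receptor gene of epithelial junctions, and TNRC6C, a gene of microRNA silencing (0.27, 0.29 and 0.29). Across the 6 libraries, which share their groups, Pearson's r was 0.963 to 0.991 for these 9 pairs. The 9 genes were picked as the nearest on the same values, so a high r follows from the choice. None of those nearest to ZEB1 or ESRP1 was called.

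The genes around these 10 were described by 13 lists of EMT biology, each read against 4.20% of all tested genes called and a median log2 fold change of -0.0048 over all tested genes. Mesenchymal genes were called higher in 8 of 33 tested and lower in 0, with a median of 0.12. CCN2, a matricellular growth factor gene, rose from 34.9 ± 5.45 to 95.5 ± 3.69 CPM (edgeR adjusted p = 1.28e-05), COL5A2, a fibrillar collagen chain, from 212 ± 7.34 to 301 ± 13.9 CPM (adjusted p = 0.00179) and CAV1, the caveolin gene, from 264 ± 3.29 to 344 ± 7.95 CPM (adjusted p = 0.00784). AXL, CALD1, EMP3 and GEM were also called higher. Other genes of the list were lower without being called. Among them were TPM1 and COL3A1 (log2 fold changes -1.39 and -0.83, edgeR adjusted p = 0.238 and 0.0718). SPARC and TAGLN were lower too (-0.61 and -0.60, adjusted p = 0.156 and 0.236). CCN2 and COL5A2 were called whichever library was left out, and CAV1 was not without Control replicate 1 or 2 (adjusted p = 0.0653 to 0.0685). When 1 library was left out, between 3 genes (without Control replicate 1 or 2) and 13 genes (without RSM3 replicate 1) were called. With the GC and length correction the count was 14. The term for Control replicates 1 and 2 leaves Control replicate 3 as the sole reference. With it CCN2 was still called, and COL5A2 and CAV1 were not.

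Ligands, receptors and SMADs that can induce EMT were called higher in 6 of 25 tested and lower in 2, with a median log2 fold change of 0.11. LIF, an interleukin-6 family cytokine, PDGFB, a platelet-derived growth factor chain, SMAD3, the transducer of TGF-β signals, and TGFB2, a TGF-β ligand, rose, with log2 fold changes of 1.23, 1.33, 0.76 and 0.80 (edgeR adjusted p = 1.14e-05, 0.000234, 0.000163 and 0.00187). SMAD3 went from 170 ± 3.05 to 289 ± 22.7 CPM. These 4 were called whichever library was left out, and TGFB2 was not with the term for Control replicates 1 and 2 (adjusted p = 0.0858). The receptor genes MET and TGFBR3 also rose, and the ligand genes TGFB3 and JAG1 fell. The count of called genes was lowest, 4, without Control replicate 2 and highest, 12, when RSM3 replicate 1 was left out.

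Epithelial adhesion and polarity genes were called higher in 3 of 38 tested and lower in 0, with a median log2 fold change of 0.03. PKP2, a desmosomal plakophilin, rose from 23.2 ± 1.64 to 34.8 ± 1.95 CPM (edgeR adjusted p = 0.00625). KRT7, a simple-epithelial keratin, rose from 66.4 ± 12.6 to 101 ± 14.5 CPM and CLDN4, a tight junction claudin, from 390 ± 25.6 to 493 ± 36.6 CPM (adjusted p = 0.0233 and 0.0373). Without any one Control library 1 gene was called, and 5 when RSM3 replicate 1 was left out. With the GC and length correction 8 were called. PKP2, KRT7 and CLDN4 were not called with the term for Control replicates 1 and 2. PKP2 was not called without Control replicate 1 (adjusted p = 0.0576), KRT7 when Control replicate 2, Control replicate 3, RSM3 replicate 1 or RSM3 replicate 3 was dropped (0.0786 to 0.199), and CLDN4 without any library but RSM3 replicate 1 (0.0658 to 0.170).

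Epithelial transcription factors had a median log2 fold change of -0.20 over 12 tested, with 1 called. FOXA1, a pioneer factor of luminal cells, fell from 141 ± 21.6 to 93.0 ± 4.76 CPM (edgeR adjusted p = 0.00680), a call that ended without Control replicate 1 or 2 (adjusted p = 0.0599 to 0.0653). Leaving out Control replicate 1 or 2 gave 0 calls, and leaving out RSM3 replicate 1 gave 5. Among 15 other EMT-promoting factors edgeR called 0, DESeq2 1 and limma voom 1, and 4 had an unadjusted p under 0.05 in edgeR (median 0.07). FOSL1, an AP-1 subunit gene, stood at 662 ± 39.1 and 894 ± 202 CPM (log2 fold change 0.43, edgeR adjusted p = 0.0772). It was called with the replicate block (adjusted p = 0.0322), DESeq2 (0.0209), no filter (3.41e-05), the GC and length correction (0.00337), both of block and correction (0.000827) and without RSM3 replicate 1 (0.00255, log2 fold change 0.23). ID1, an inhibitor of helix-loop-helix factors, stood at 222, 230 and 70.1 CPM in Control replicates 1, 2 and 3 and averaged 391 ± 64.8 CPM in RSM3 (log2 fold change 1.17, edgeR adjusted p = 0.307). Control replicate 3 was the low library: without it the log2 fold change was 0.79 (adjusted p = 0.00657), and with the term for Control replicates 1 and 2, which leaves it as the sole reference, 2.48 (0.000398; 2.44 and 3.32e-08 with the GC and length correction added). The limma voom fit called ID1 too (adjusted p = 0.0360). This list had 3 called without RSM3 replicate 1 and 4 with the GC and length correction.

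Partners of the repressors gave 2 calls among corepressors and 1 among turnover genes. Of 17 corepressors of ZEB and SNAIL proteins, EZH2, the Polycomb methyltransferase, rose from 54.6 ± 3.74 to 72.6 ± 4.80 CPM and AJUBA, a LIM adaptor, from 71.9 ± 4.53 to 94.6 ± 2.72 CPM (edgeR adjusted p = 0.0219 and 0.0167; list median 0.06). Of 22 genes of SNAIL and ZEB protein turnover, LATS2, a Hippo kinase that phosphorylates SNAI1 protein, rose from 19.1 ± 2.48 to 26.6 ± 2.10 CPM (adjusted p = 0.0470; list median -0.01). The corepressor and turnover lists had 4 and 2 genes called without RSM3 replicate 1, 4 and 2 with the GC and length correction, and 0 each when any one of the other libraries was left out. EZH2, AJUBA and LATS2 were called without RSM3 replicate 1 and were not called when any one of the other libraries was left out (adjusted p = 0.0554 to 0.181). Of 6 tested non-coding genes linked to EMT, edgeR, DESeq2 and limma voom called 0 without a term for Control replicates 1 and 2. An unadjusted p under 0.05 in edgeR was reached by 0 (median 0.15). MALAT1 stood at 307 ± 70.6 and 270 ± 0.944 CPM, with 255, 278 and 387 CPM in Control replicates 1, 2 and 3. SNAI3-AS1 stood at 4.19 ± 0.0801 and 5.09 ± 0.976 CPM.

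Other splicing regulators of EMT, which act beside or against the ESRP proteins, were called higher in 2 of 25 tested. QKI, an RNA-binding protein that promotes mesenchymal splicing, rose from 130 ± 4.17 to 235 ± 31.2 CPM, 0.85 ± 0.10 on the log2 scale (edgeR adjusted p = 0.000293), and was called whichever library was left out and with the term for Control replicates 1 and 2 (adjusted p = 0.0317). TRA2B, a splicing activator, rose from 244 ± 16.1 to 333 ± 10.0 CPM (adjusted p = 0.00483), a call that ended without Control replicate 1 or 2 (0.0522 to 0.0631). The list's median was 0.08, and 1 to 8 of its genes were called across the fits that left out 1 library, the 8 without RSM3 replicate 1. Of 29 tested genes whose transcripts the ESRP proteins splice, UAP1, an enzyme of the hexosamine pathway, and LRRFIP2 were called higher and 27 were not called, with a median of -0.0012. UAP1 went from 124 ± 6.69 to 194 ± 10.4 CPM and was called whichever library was left out. LRRFIP2 was not called in 4 of these 6 fits (adjusted p = 0.0596 to 0.0971). These are totals over all splice forms. The number called in this list was 1 without any one Control library or RSM3 replicate 3 and 10 without RSM3 replicate 1.

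Partners of EPCAM, FN1 and VIM gave 2 calls in each list, all higher. Of 19 partners and cleavage enzymes of EPCAM, FHL2, a LIM protein that joins its intracellular domain, rose from 109 ± 4.63 to 164 ± 22.1 CPM (edgeR adjusted p = 0.00370). FHL2 was called whichever library was left out, and not with the term for Control replicates 1 and 2. CD9, a tetraspanin, rose from 187 ± 10.0 to 238 ± 0.608 CPM (adjusted p = 0.0179). Of 17 fibronectin receptor and assembly genes, FERMT2, an integrin activator, rose from 373 ± 3.90 to 478 ± 22.8 CPM and the syndecan SDC4 from 93.4 ± 6.81 to 122 ± 8.59 CPM (adjusted p = 0.0141 and 0.0261). Of 17 vimentin partners and intermediate filament genes, AURKB, a mitotic kinase that phosphorylates vimentin, rose from 21.5 ± 1.32 to 33.8 ± 6.16 CPM and RND3, a small GTPase, from 181 ± 17.9 to 238 ± 17.0 CPM (adjusted p = 0.0145 and 0.0261). The 3 lists had medians of 0.05, 0.12 and -0.02 and 0 falls. Across the fits that left out 1 library, 1 or 2 genes of the EPCAM list were called. The fibronectin list had 0 called without Control replicate 1 or 2 or either of RSM3 replicates 2 and 3, and 10 without RSM3 replicate 1. The vimentin list had 0 called when RSM3 replicate 3 or either of Control replicates 1 and 2 was dropped, and 6 without RSM3 replicate 1. CD9, FERMT2, SDC4, AURKB and RND3 lost their calls in 4 or 5 of the 6 fits that left out 1 library, with adjusted p values of 0.0513 to 0.171, and kept them without RSM3 replicate 1.

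**Figure D4:**
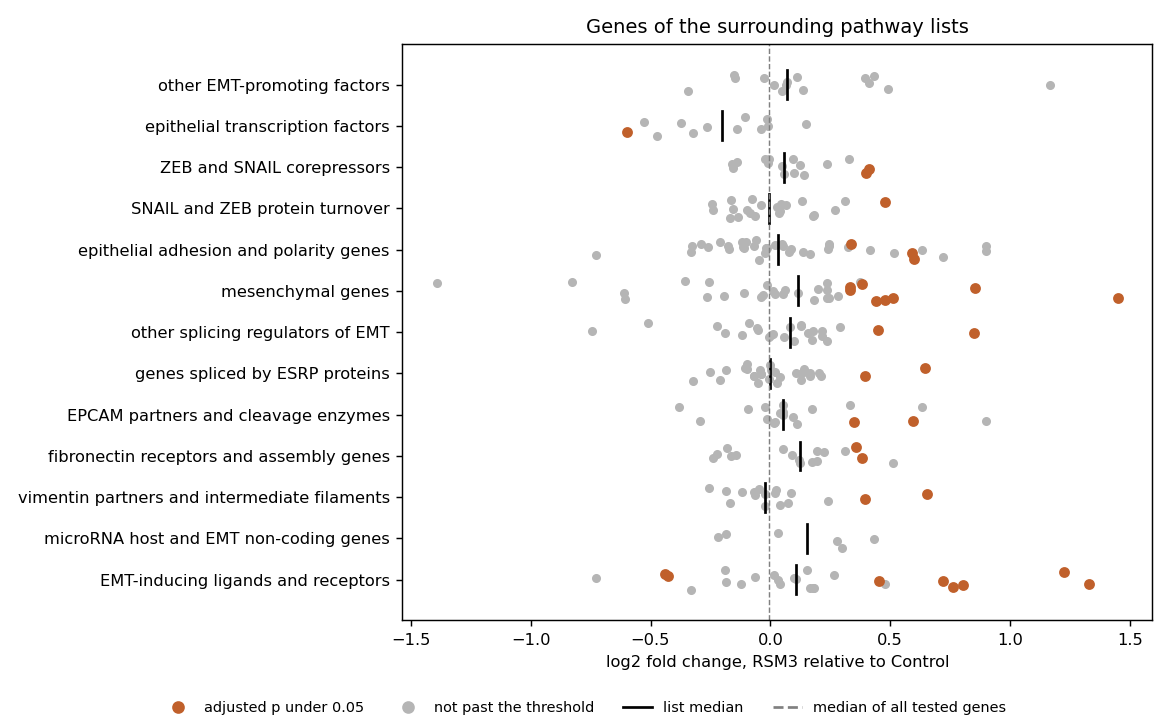
Log2 fold change of every tested gene in the 13 lists of EMT biology, with called genes in orange, other genes in grey, the list median as a black line and the median of all tested genes as a dashed line. Called genes lie mostly to the right, 8 among the mesenchymal genes and 6 among the inducing ligands and receptors, and the called gene of the epithelial transcription factors lies to the left at -0.60.

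Markers of other cell types were mostly at or near 0 for leukocytes and partly present for the other types; their part in the results was not tested. None of 12 blood cell markers passed the filter, which were leukocyte genes and HBB, a globin gene of red blood cells. Their summed level was 1.90 to 3.37 CPM in Control and 1.16 to 2.26 CPM in RSM3, with CD3D, CD3E, MS4A1 and HBB among those at 0. Of 12 fibroblast markers 5 passed, with sums of 103 to 124 and 78.4 to 105 CPM and DCN and THY1 at 0, and PDGFRA was called lower (18.1 ± 1.66 and 12.4 ± 1.41 CPM, edgeR adjusted p = 0.0382, and 0.0597 to 0.202 when a Control library or RSM3 replicate 2 or 3 was dropped). Of 8 endothelial markers 3 passed, with sums of 229 to 249 and 155 to 195 CPM, of which KDR made up 208 ± 13.3 and 143 ± 20.8 CPM and was called lower (adjusted p = 0.00977, and 0.0713 to 0.0781 without Control replicate 1 or 2). Of 7 neuroendocrine markers 2 passed, ENO2 and SYP, and edgeR and DESeq2 called 0, with 1 at an unadjusted p under 0.05 (sums of 162 to 169 and 179 to 209 CPM). With the GC and length correction edgeR called 1 of them, ENO2 (adjusted p = 0.0115). In the list of prostate and PC3 identity genes TMPRSS2 was called higher and HOXB13 lower among 7 tested of 14, whose sums were 1022 to 1059 CPM in Control and 894 to 1113 CPM in RSM3 (49.8 ± 1.75 to 74.7 ± 2.20 and 499 ± 12.4 to 370 ± 23.1 CPM, adjusted p = 0.00150 and 0.00625). HOXB13 lost its call without Control replicate 1 or 2 or RSM3 replicate 3 (adjusted p = 0.0534 to 0.0624).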

How the data were processed

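RNA from 6 PC3 samples was sequenced, in groups of 3. The library protocol in the labels selects poly(A) RNA and marks the second strand with dUTP. Tools named in the submitters' processing notes, without role, are DESeq2, featureCounts, STAR (2.7.1a) and fastp, and the build is hg38. Neither the annotation release nor the strand setting is given in the sources used here. The authors deposited raw counts for 60545 genes, with no normalisation, and 1 column per sample matched each title.

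filterByExpr (minimum count 10) left 15773 genes. edgeR (4.0.16, R 4.3.3) compared the groups by its quasi-likelihood F-test with TMM factors and no covariate. P values were adjusted by Benjamini-Hochberg over all tested genes and called under 0.05. Standard errors and 95% intervals came from the F statistic. The scripts recovered known changes when tested on simulated data. Lengths, GC content and positions came from GENCODE 29 (GRCh38), which covered 99.0% of tested genes. The GC and length correction used loess curves (span 0.5) as an offset. Pairs of replicates differed by more than sampling noise (chi-square per degree of freedom 3.29 to 19.5). The main fit kept all 6 libraries.

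The genes, the lists and the tests were chosen with earlier results of these data known. All 10 members were named, with up to 4 called genes per list by smallest adjusted p (or the 2 most expressed where none was called) and the 3 nearest profiles for the 3 members with the smallest p. Other genes named (CDH1, CDH2, TPM1, mesenchymal genes not called, antisense partners, remaining genes of small counts, marker genes) were chosen after their values were seen. Alternatives were DESeq2 (1.42.0), limma voom (3.58.1), other scalings and filters, a replicate block, the GC and length correction, a term for Control replicates 1 and 2, and leaving out each library. Values of some listed genes are not reported here.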

Additional observations from a re-analysis of the deposited data

How the results depend on the processing

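In all, 662 genes were called. The count became 1083 with no filter, 1628 under the GC and length correction, 1455 when a replicate block joined that correction, and 118 with the term for Control replicates 1 and 2. Leaving out 1 library gave 214 to 2393. Of the 10 members 0 were called, against 1 with no filter, 1 with DESeq2, 3 under the GC and length correction, 2 with the block and that correction, and 0 to 3 when 1 library was left out. The replicate block alone called 653 genes and 0 members. Same-numbered libraries did not deviate together (r = 0.030, -0.025 and 0.044), so the numbers were not used as pairs. Between 3 members (library size alone) and 6 members (without RSM3 replicate 1) had groups that did not overlap. The share over all tested genes was not counted in these settings. Groups separate more easily when 1 library is left out, so the 6 cannot be read against the share from all libraries. Some log2 fold changes that were not called changed sign, among them that of ZEB2 (-0.52 with all libraries). The term for Control replicates 1 and 2 gave ZEB2 0.24, TWIST1 0.21 and VIM -0.0035; joined with the GC and length correction it gave ZEB2 0.34, TWIST1 0.17 and FN1 0.018. Library size alone gave SNAI1 -0.022 and VIM -0.00057. Over the fits that left out 1 library, SNAI1 ran from -0.17 to 0.31, TWIST1 from -0.20 to 0.040, VIM from -0.032 to 0.11, MALAT1 from -0.30 to 0.017 and SYP from -0.42 to 0.0034. The cause was not tested. SNAI1, ESRP1 and ZEB2, at 16 to 71 reads per library, had the largest standard errors of the 10 members (0.37, 0.28 and 0.33). ESRP1 (log2 fold change -0.65 with all libraries) kept its sign in every fit. VIM (0.06) and FN1 (-0.12) changed theirs in at least 1 fit. The part of depth in these values was not tested. The term joined with the GC and length correction, other scalings of the overlap count and list counts under other fits were alternatives added after the data had been seen.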
